A study of Homo sapiens with 9 samples.

Results

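The genes that write, copy and erase DNA methylation were followed in U2OS cells, an established human osteosarcoma line, after siRNA against NFKB2 or RELB, the DNA-binding subunits of the non-canonical NF-kB pathway. They were selected by symbol. The maintenance genes are UHRF1, DNMT1 and HELLS with the UHRF1 relative UHRF2, the de novo methyltransferases are DNMT3A and DNMT3B, and the dioxygenases that oxidise methylcytosine are TET1, TET2 and TET3. All 9 genes were found among the 44608 entries of every count table, and all 9 passed the filter on low counts that left 14815 genes for testing. The groups were 3 libraries of cells given siRNA against NFKB2 (siNFKB2), 3 of cells given siRNA against RELB (siRELB) and 3 of cells given a non-silencing siRNA (siNS). In every group the siRNA was at 75 nM, it was delivered with a lipid reagent, and total RNA was taken 48 h later for oligo-dT selected libraries. Whether each target was hit with a single siRNA or a pool is not given in the sources used here. The replicates are numbered, but no label says whether they came from separate cultures. The p-values below therefore reflect how these libraries varied, and that variation may be technical.

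DNA replication leaves each CpG methylated on the old strand alone. UHRF1 recognises such hemimethylated sites and brings DNMT1, which methylates the new strand, while HELLS is a chromatin remodeller that opens nucleosomal DNA to this machinery. DNMT3A and DNMT3B can methylate sites that carried no mark, and the TET enzymes oxidise methylcytosine, after which the mark can be lost by repair or by further rounds of replication. UHRF1, DNMT1 and HELLS are known to be made mostly in proliferating cells around S phase. Methylation itself was not measured here, only RNA.

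Total counts ranged from 15011789 to 19279572 per library. NFKB2, the first siRNA target, was at 5.26, 22.9 and 48.4 CPM in siNFKB2 replicates 1 to 3, against 80.7, 126 and 117 CPM in siNS, where CPM is the count per 1000000 counts of a library size scaled by edgeR's TMM method. It fell with a log2 fold change of -2.09 (edgeR quasi-likelihood test, adjusted p = 0.0210), a call that was lost without siNS replicate 2 (0.0532), siNS replicate 3 (0.0667) or siNFKB2 replicate 2 (0.0936), and in a fit of only the 6 libraries compared (0.0502). RELB, the other target, was at 2.66, 4.66 and 5.36 CPM in siRELB, against 17.1, 30.3 and 34.1 CPM in siNS. It fell with a log2 fold change of -2.69 (edgeR, adjusted p = 0.00881), a call lost without siRELB replicate 2 (0.0591) or siNS replicate 3 (0.0575). The replicates numbered 1 stood apart, since the deviations of these libraries from their group means correlated at 0.58, 0.59 and 0.54 between pairs of groups, and values without them are given below. Mitochondrial rRNA took 2.68% of counts in siNFKB2 replicate 3, against 0.379% to 1.33% in the other 8 libraries. Mesenchymal and bone markers such as VIM, SPARC and COL1A1 were abundant, with a summed level of 5 genes of 4168 to 4473 CPM in siNFKB2, 4220 to 5223 in siRELB and 4509 to 5907 in siNS, although COL1A2 did not exceed 1.153 CPM. Epithelial markers (6 genes) summed to 9.50 to 12.5 CPM in siNFKB2, 13.1 to 15.5 in siRELB and 10.3 to 17.1 in siNS. Blood markers (6 genes, with CD3E at 0) summed to 7.35 to 8.21 CPM in siNFKB2, 6.40 to 8.50 in siRELB and 8.94 to 9.28 in siNS. Endothelial markers (3 genes) stayed between 1.37 and 2.77 CPM in all libraries, and the part of any of these markers in the results was not tested.

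The first comparison asked how the methylation genes differed after siRNA against NFKB2. Effects of either siRNA beyond its target were not tested. In siNFKB2 against siNS, UHRF1, DNMT1, HELLS and TET1 fell, TET3 rose, and UHRF2, DNMT3A, DNMT3B and TET2 did not pass the test. Of all 14815 genes tested, 13.5% were called lower and 12.6% higher (26.1% either way), so 4 lower and 1 higher of 9 stand against that background, where a call is an adjusted p below 0.05 over all genes. Without the 3 libraries numbered 1, described above, 4 were called lower and 2 higher, but that fit also called 23.2% of all genes lower and 21.6% higher (44.9% either way). All 3 siNFKB2 libraries were below all 3 siNS libraries for 4 of the 9, as they were for 18.6% of all genes. They were above them for 1 of the 9 and for 18.8% of all genes. The median log2 fold change of the 9 was -0.26, against -0.0037 over all genes.

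**Figure D1:**
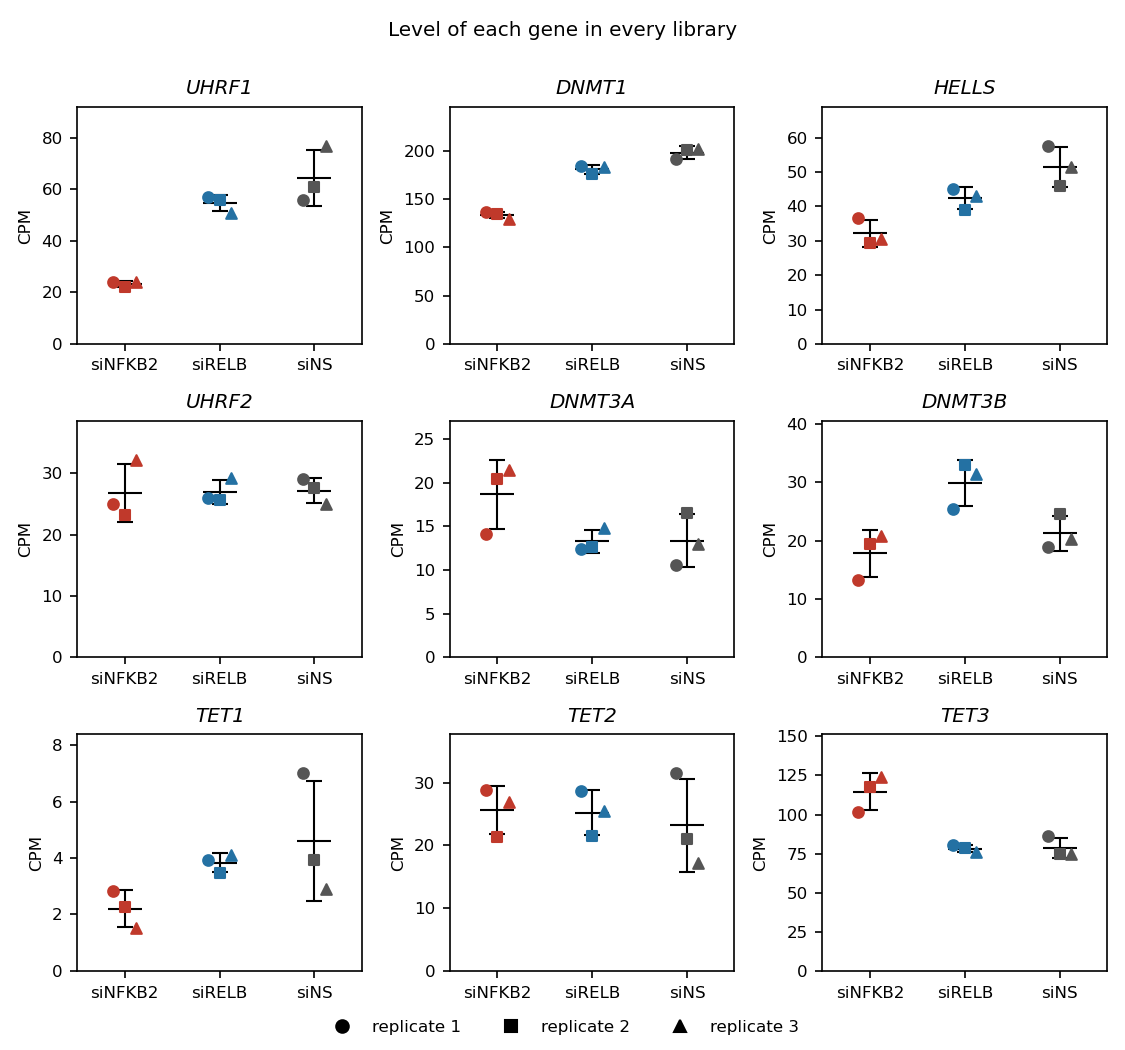
Level of each gene in CPM (vertical axis, from 0) in siNFKB2, siRELB and siNS libraries; symbols mark the replicate number, bars the mean and SD of 3 libraries. UHRF1 sits between 22.05 and 24.1 CPM in siNFKB2 and at 50.9 CPM or more in all siRELB and siNS libraries.

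UHRF1 (chromosome 19, 4903080 to 4962154, plus strand, GRCh38, GENCODE 29) showed the widest difference of the 9. It was at 24.1, 22.05 and 23.9 CPM in siNFKB2, 57.0, 55.9 and 50.9 CPM in siRELB, and 55.9, 60.8 and 76.6 CPM in siNS. The siNFKB2 libraries lay close together and far below both other groups, whereas siRELB and siNS overlapped. It fell to 36.2% of the siNS mean under NFKB2 siRNA (log2 fold change -1.46, SE 0.139, edgeR adjusted p = 0.000253), and 2.25% of all genes tested had a lower one. These are bulk samples, so fewer cells that express a gene and less of its RNA per cell cannot be told apart.

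DNMT1 (chromosome 19, 10133345 to 10231286, minus strand) had 136, 134 and 129.5 CPM in siNFKB2, 184, 175 and 182 CPM in siRELB, and 191, 201 and 202 CPM in siNS. No siNFKB2 library overlapped another group, and even the siRELB libraries lay just under the lowest siNS library. In siNFKB2 it fell to 67.4% of the siNS mean, with a log2 fold change of -0.57 (SE 0.0914, edgeR adjusted p = 0.00181). DNMT1 shares 0.847% of its merged exon length with S1PR2 on the same strand. HELLS (chromosome 10, 94501434 to 94613905, plus strand) was at 36.6, 29.3 and 30.6 CPM in siNFKB2, 45.1, 38.8 and 43.1 CPM in siRELB, and 57.4, 45.8 and 51.5 CPM in siNS. Its siNFKB2 libraries were again the lowest 3 of the 9, with siRELB between. It fell with a log2 fold change of -0.68 (SE 0.136, edgeR adjusted p = 0.00535). Without the 3 libraries numbered 1, the log2 fold changes were -1.58 for UHRF1, -0.61 for DNMT1 and -0.70 for HELLS (edgeR adjusted p = 4.29e-06, 0.000246 and 0.000418).

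Promoter letters were read for all 9 genes. The promoter windows of RefSeq (GRCh38.p14, 250 bases before to 50 after a start) were searched on both strands for 3 forms of the E2F motif, TTTCGCGC, TTTGGCGC and TTTCCCGC. E2F factors are the main activators of genes needed for S phase. A match to at least 1 form was found for UHRF1, DNMT1 and HELLS and in no window of the other 6 genes, TET1 among them, while 2.74% of all 35116 windows and 3.30% of the 27305 genes with a window held one. The only DNMT3B window has its start site at 32779852, inside the gene. The letters around the GENCODE start of DNMT3B, at 32762385, were therefore not read. The only windows of DNMT1 and HELLS and all windows of UHRF1 also lie inside their GENCODE genes. The letters around the GENCODE starts of these genes were not read either. The forms differ between the genes, and DNMT1 and HELLS have none in common. A match describes the letters and is not a measured binding site, and its part in any change was not tested. Each is shown within 30 bases of the gene's own strand, 5′ to 3′, with the match in capitals, to let the forms be compared. The DNMT1 site is at chr19:10194937-10194966, and the match begins 2 bases before the start site. The first UHRF1 site, at chr19:4909476-4909505, and the second, at chr19:4909973-4910002, precede different annotated starts by 14 and 160 bases. Both HELLS sites, at chr10:94545701-94545730 and chr10:94545769-94545798, lie 76 and 8 bases before the same start.
DNMT1: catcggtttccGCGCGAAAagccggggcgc
UHRF1, first: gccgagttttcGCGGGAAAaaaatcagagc
UHRF1, second: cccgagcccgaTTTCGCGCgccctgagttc
HELLS, first: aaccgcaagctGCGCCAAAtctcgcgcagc
HELLS, second: gatgacaggatTTTCCCGCgaaggagaagc

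For the NF-kB motif, searched as GGG and TTCC with 3 bases of any kind between them, on both strands, a match was found in 1 window of UHRF1 and 1 of TET3, against 6.52% of all windows. The cell cycle element CHR, searched as TTTGAA on both strands, occurred in windows of DNMT3A and TET2, against 15.2% of all windows. The windows held between 3 CpG (the only DNMT3B window, which lies inside the gene) and 46 CpG (DNMT3A and UHRF1), with a median of 14 over all windows.

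UHRF2 (chromosome 9, 6413151 to 6507054, plus strand), a close relative of UHRF1 with the same domain plan that does not replace it in maintenance, did not separate the groups. It was at 25.1, 23.3 and 32.2 CPM in siNFKB2, 25.9, 25.6 and 29.3 CPM in siRELB, and 29.1, 27.6 and 24.9 CPM in siNS. All 3 groups overlapped. The log2 fold change was -0.020 in siNFKB2 against siNS (95% interval -0.35 to 0.31, edgeR adjusted p = 0.940), an interval that does not reach the fall of UHRF1.

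DNMT3A (chromosome 2, 25227855 to 25342590, minus strand), a de novo methyltransferase, had 14.2, 20.4 and 21.4 CPM in siNFKB2, 12.4, 12.6 and 14.8 CPM in siRELB, and 10.6, 16.6 and 12.95 CPM in siNS. Replicates 2 and 3 of siNFKB2 were above every other library, and replicate 1 was within the siNS range. The log2 fold change in siNFKB2 against siNS was 0.48 (95% interval 0.026 to 0.94, edgeR adjusted p = 0.112) and did not pass. It passed without siNFKB2 replicate 1 (log2 0.65, adjusted p = 0.0320) and without the 3 libraries numbered 1 (log2 0.50, adjusted p = 0.0183). DNMT3B (chromosome 20, 32762385 to 32809356, plus strand), the other de novo enzyme, was at 13.2, 19.4 and 20.8 CPM in siNFKB2, 25.5, 32.9 and 31.4 CPM in siRELB, and 18.9, 24.6 and 20.3 CPM in siNS. It was highest in the siRELB libraries, which lay above all the others, while siNFKB2 and siNS overlapped. In siNFKB2 against siNS its log2 fold change was -0.26 (95% interval -0.68 to 0.17, edgeR adjusted p = 0.364).

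TET3 (chromosome 2, 73986404 to 74108176, plus strand) was the most highly expressed of the dioxygenases. It had 101, 118 and 124 CPM in siNFKB2, 80.3, 78.4 and 76.0 CPM in siRELB, and 86.1, 74.8 and 74.9 CPM in siNS. Every siNFKB2 library was above every other library, and siRELB and siNS overlapped. TET3 rose in siNFKB2 with a log2 fold change of 0.54 (SE 0.115, edgeR adjusted p = 0.00705), or 0.69 without the 3 libraries numbered 1 (adjusted p = 0.000106). TET2 (chromosome 4, 105145875 to 105279816, plus strand), a dioxygenase often mutated in blood cancers, was at 28.8, 21.4 and 26.9 CPM in siNFKB2, 28.6, 21.5 and 25.5 CPM in siRELB, and 31.4, 21.0 and 17.1 CPM in siNS. The groups overlapped, and replicate 1 was the highest library of each. Its log2 fold change in siNFKB2 against siNS was 0.15 (95% interval -0.35 to 0.64, edgeR adjusted p = 0.678).

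TET1 (chromosome 10, 68560656 to 68694482, plus strand) was the scarcest of the 9, with 23 to 133 counts per library. It was at 2.84, 2.26 and 1.52 CPM in siNFKB2, 3.94, 3.47 and 4.10 CPM in siRELB, and 6.99, 3.94 and 2.91 CPM in siNS. The siNFKB2 libraries were the lowest 3, but the highest of them was close to the lowest siNS library, and siNS replicate 1 stood far above the rest. TET1 fell in siNFKB2 with a log2 fold change of -1.05 (SE 0.337, edgeR adjusted p = 0.0426), and the call was fragile. Without siNS replicate 1 the log2 fold change was -0.62 (adjusted p = 0.128). The call was also lost without siNFKB2 replicate 2 (0.122) or 3 (0.140), without siNS replicate 2 (0.0558), without siRELB replicate 1, 2 or 3 (0.0581, 0.0633 and 0.0635) and in a fit of only the 6 libraries compared (0.0909). It remained without the 3 libraries numbered 1 (log2 -0.84, adjusted p = 0.0391), and its adjusted p lay between 0.00844 and 0.140 across 16 alternatives.

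**Figure D2:**
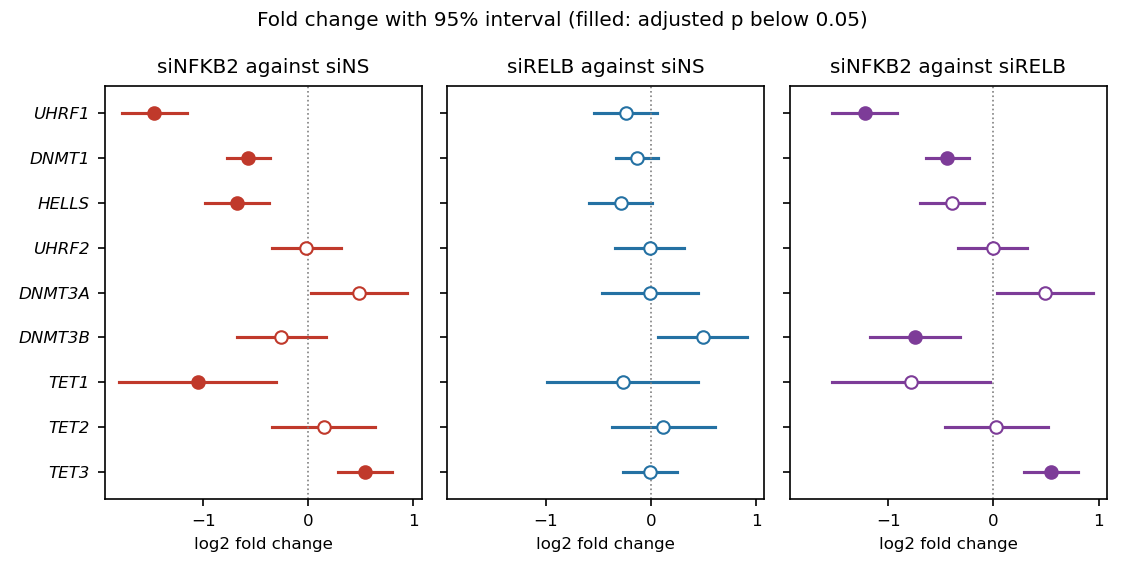
Log2 fold change (horizontal axis) of the 9 genes with the 95% interval from edgeR's fit, in siNFKB2 against siNS, siRELB against siNS and siNFKB2 against siRELB; filled points have an adjusted p below 0.05. UHRF1 lies farthest from 0 in siNFKB2 at -1.46, and no point is filled in siRELB against siNS.

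The second comparison asked the same of siRNA against RELB. In siRELB against siNS none of the 9 genes was called by edgeR or by DESeq2, and 1, DNMT3B, had an unadjusted p below 0.05. Over all 14815 genes, DESeq2 called 876, and 2492 had an unadjusted edgeR p below 0.05. Of all genes, 0.81% were called lower and 1.21% higher (2.02% either way), so no call among 9 is near the background. DNMT3B had the largest positive value, a log2 fold change of 0.49 (95% interval 0.069 to 0.91, edgeR adjusted p = 0.235), with all 3 siRELB libraries above all 3 siNS libraries. That order was found for 12.3% of all genes. Without the 3 libraries numbered 1 the value was 0.52 and passed (adjusted p = 0.0137), but that fit also called 3390 of all 14951 genes it tested. HELLS was at a log2 fold change of -0.29 (95% interval -0.59 to 0.015, adjusted p = 0.322) and DNMT1 at -0.13 (95% interval -0.33 to 0.070, adjusted p = 0.504). For both, all siRELB libraries were below all siNS libraries, an order that 10.2% of all genes had. UHRF1 was at -0.24 (95% interval -0.54 to 0.062, adjusted p = 0.410), so a fall as wide as in siNFKB2 lay outside the interval. The intervals of TET3 (-0.26 to 0.25), UHRF2 (-0.34 to 0.31), DNMT3A (-0.46 to 0.45), TET2 (-0.37 to 0.61) and TET1 (-0.98 to 0.45) all spanned 0.

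The knockdowns share the siNS libraries, so their effects were set against each other directly. In siNFKB2 against siRELB, 3 of the 9 genes were called lower and 1 higher, against 14.3% and 12.2% of all genes (26.6% either way). All siNFKB2 libraries were below all siRELB libraries for 5 of the 9 and 23.6% of all genes, and above them for 1 of the 9 and 22.3% of all genes. UHRF1 was lower in siNFKB2 by a log2 fold change of -1.23 (SE 0.139, edgeR adjusted p = 0.000374) and DNMT1 by -0.44 (SE 0.0913, adjusted p = 0.00650). DNMT3B was lower too, at -0.75 (SE 0.192, adjusted p = 0.0170), a call lost without siRELB replicate 2 (0.0674) or 3 (0.0600). TET3 was higher in siNFKB2, at 0.55 (SE 0.115, adjusted p = 0.00665). HELLS had a log2 fold change of -0.40 and just missed the threshold (adjusted p = 0.0548). It passed without siNFKB2 replicate 1 (0.0251), without siNS replicate 1 (0.0319), without the 3 libraries numbered 1 (0.00691), in a fit of only the 6 libraries (0.0432) and by DESeq2 (0.0361). TET1 (log2 -0.79, adjusted p = 0.114) and DNMT3A (0.49, adjusted p = 0.106) did not pass with all libraries and did without the 3 numbered 1 (adjusted p = 0.0176 and 0.00730). The fit without those 3 libraries also called 6600 of all 14951 genes it tested in this comparison. TET1 also passed without siNS replicate 1 (0.0394) and DNMT3A without siNFKB2 replicate 1 (0.0294). UHRF2 (-0.0070, 95% interval -0.33 to 0.32) and TET2 (0.026, 95% interval -0.47 to 0.52) had fold changes near 0.

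To compare genes with each other, CPM was divided by the merged exon length in GENCODE 29, which may differ from the annotation used for counting. This length merges every annotated transcript, 28 for DNMT1 and 12 for HELLS but 1 for TET1. It can exceed the length of the RNA present, so the order depends on this divisor. In siNS the order was DNMT1 (20.2 ± 0.636 CPM per kb, SD, n = 3), UHRF1 (12.5 ± 2.10), TET3 (6.41 ± 0.529), HELLS (5.08 ± 0.571), DNMT3B (4.59 ± 0.645), UHRF2 (2.74 ± 0.212), TET2 (1.41 ± 0.450), DNMT3A (1.11 ± 0.249) and TET1 (0.497 ± 0.229). The libraries of HELLS and DNMT3B overlapped, as did those of TET2 and DNMT3A, and no other neighbours in this order did. In siNFKB2 UHRF1 was at 4.54 ± 0.219 CPM per kb, below TET3 at 9.33 ± 0.958, the reverse of their order in siRELB (10.6 ± 0.627 and 6.38 ± 0.177) and siNS. DNMT1 remained the highest per length in siNFKB2, at 13.6 ± 0.350 CPM per kb, and TET1 the lowest, at 0.238 ± 0.0714. In siRELB, DNMT3B at 6.46 ± 0.844 CPM per kb was level with TET3 and above HELLS at 4.17 ± 0.316.

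**Figure D3:**
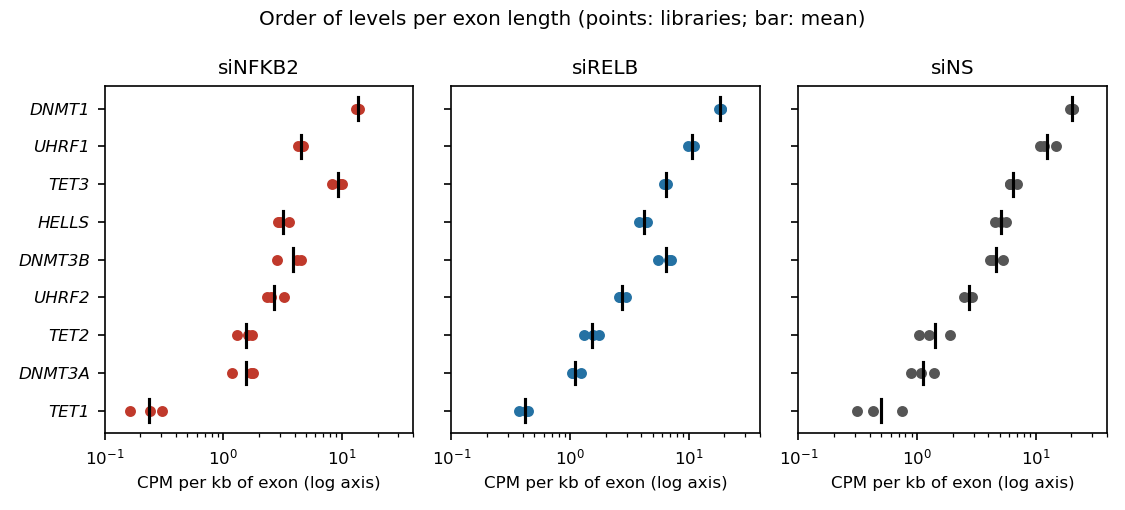
CPM per kb of merged exon (horizontal log axis) for the 9 genes in siNFKB2, siRELB and siNS, in the order of the siNS means; points are libraries and bars the mean of 3. UHRF1 is second in siNS at 12.5 CPM per kb and lies below TET3 in siNFKB2 at 4.54 CPM per kb.

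Ratios of counts within a library do not depend on how libraries are scaled, and they are given as a description without a test. The log2 ratio of UHRF1 to UHRF2 was -0.057, -0.078 and -0.43 in siNFKB2, 1.14, 1.13 and 0.80 in siRELB, and 0.94, 1.14 and 1.62 in siNS. Reads of UHRF1 thus outnumbered those of UHRF2 in every siRELB and siNS library and in none of siNFKB2. These counts are not corrected for exon length. Per kb of merged exon, UHRF1 stayed above UHRF2 in siNFKB2 (4.54 ± 0.219 against 2.71 ± 0.474 CPM per kb). For DNMT3A to DNMT3B the log2 ratio was 0.10, 0.071 and 0.041 in siNFKB2, -1.03, -1.38 and -1.08 in siRELB, and -0.83, -0.57 and -0.64 in siNS. The 3 groups did not overlap, siNFKB2 being highest and siRELB lowest, with an SD of 0.031 in siNFKB2, 0.19 in siRELB and 0.13 in siNS. DNMT3B to DNMT1 was -3.37, -2.79 and -2.64 in siNFKB2, -2.85, -2.42 and -2.54 in siRELB, and -3.33, -3.03 and -3.32 in siNS, so that all siRELB libraries exceeded all siNS libraries.

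PCNA, the sliding clamp of DNA replication to which DNMT1 binds, allowed the maintenance genes to be set against a replication gene. The log2 ratio of DNMT1 to PCNA was -0.52, -0.24 and -0.22 in siNFKB2 and -0.93, -0.79 and -0.82 in siNS, and that of HELLS to PCNA was -2.41, -2.44 and -2.30 in siNFKB2 and -2.67, -2.93 and -2.80 in siNS. In both ratios every siNFKB2 library was above every siNS library, and PCNA had the lower log2 fold change (-1.09, against -0.57 for DNMT1 and -0.68 for HELLS). UHRF1 to PCNA was -3.01, -2.85 and -2.66 in siNFKB2 and -2.70, -2.52 and -2.22 in siNS, and these overlapped. Only siNS replicate 1 lay within the siNFKB2 range, and without the libraries numbered 1 every siNFKB2 library was below every siNS library.

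**Figure D4:**
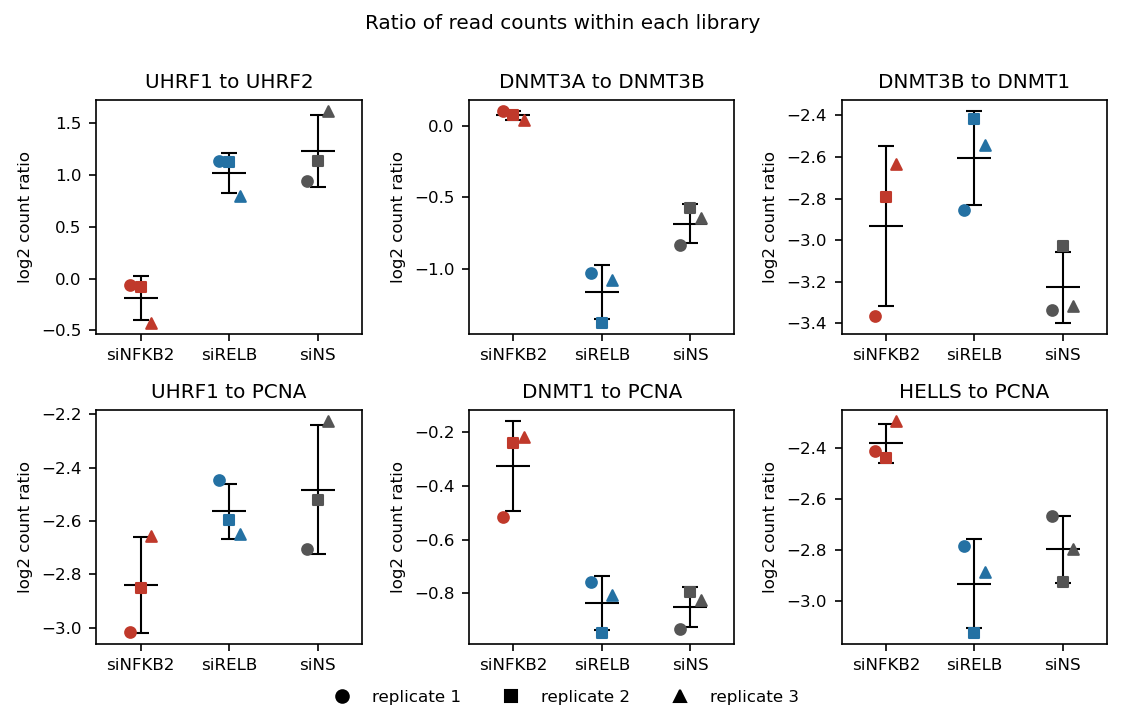
Log2 ratio of read counts (vertical axis, which does not start at 0) for 6 pairs of genes in each siNFKB2, siRELB and siNS library; symbols mark the replicate number, bars the mean and SD. UHRF1 to UHRF2 is below 0 in all 3 siNFKB2 libraries and at 0.80 or more in the other 6. Counts are not corrected for exon length.

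Other genes that serve the same machinery were counted from listed pathways. Among partners of maintenance, which act at the replication fork or on its chromatin, 9 of 15 tested fell in siNFKB2 against siNS and none rose, with a median log2 fold change of -0.56, where 13.5% of all genes fell and 12.6% rose. PCNA averaged 168 ± 23.5 CPM in siNFKB2 and 357 ± 7.997 CPM in siNS (SD, n = 3 each) and fell by 1.09 on the log2 scale (edgeR adjusted p = 0.000299). LIG1, the ligase that joins Okazaki fragments, averaged 35.9 ± 4.08 CPM in siNFKB2 and 99.2 ± 16.9 CPM in siNS (log2 -1.47, adjusted p = 0.000398). CDCA7, the partner that directs HELLS to chromatin, averaged 6.70 ± 1.75 CPM in siNFKB2 and 18.9 ± 2.43 CPM in siNS (log2 -1.49, adjusted p = 0.000633). PCLAF, a PCNA-associated protein, averaged 105 ± 16.6 CPM in siNFKB2 and 214 ± 27.1 CPM in siNS (log2 -1.02, adjusted p = 0.000825).

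Genes of G1/S phase moved with them, and PCNA, CDCA7 and CHAF1B are on both lists. Without the 9 genes, 35 of 39 tested G1/S genes fell in siNFKB2 and none rose, against the same 13.5% and 12.6% of all genes, with a median log2 fold change of -0.91. Among those with the smallest adjusted p were the helicase factors CDC45 (log2 -1.09) and GINS2 (-1.43), with edgeR adjusted p of 0.000259 and 0.000309, and PCNA. Of the 39, 3 had a lower log2 fold change than UHRF1, 30 a lower one than HELLS and 35 a lower one than DNMT1. Relative to the siNS mean, siNFKB2 replicates 1 to 3 had a G1/S median of -0.62, -1.01 and -1.08 on the log2(CPM + 1) scale, while UHRF1 stood at -1.37, -1.49 and -1.38. In the same libraries NFKB2 was at 5.26, 22.9 and 48.4 CPM, so the G1/S median was least negative where NFKB2 was lowest. A relation between these levels was not tested. The part of the G1/S genes in the fall of the maintenance genes was not tested. In siRELB against siNS none of the 39 was called, with 5 at an unadjusted p below 0.05, 2 called by DESeq2 and a median of -0.12. None of the 15 maintenance partners was called there either, with 2 at an unadjusted p below 0.05, 0 by DESeq2 and a median of -0.15, against -0.016 over all genes. Over all 14815 genes, edgeR called 2.02% in that comparison, 2492 had an unadjusted p below 0.05 and DESeq2 called 876.

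De novo methylation is steered by histone marks and zinc finger proteins. Of 13 tested genes of this kind, 3 fell in siNFKB2 and none rose (median -0.042), a share near the 26.1% of all genes called either way. They were EZH2, the H3K27 methyltransferase (log2 -0.89, edgeR adjusted p = 0.00149), NSD2, an H3K36 methyltransferase (-0.51, 0.00375) and TRIM28, the corepressor of KRAB zinc finger proteins (-0.66, 0.00680). MORC2 was at 0.32 (0.0690). DNMT3L, the inactive cofactor of the de novo enzymes, was listed at 0 in all 9 libraries. Among 9 tested genes listed as methyl-CpG readers, 1 rose and 1 fell (median -0.045), no more than that background. The list took in MBD genes by name, not by shown binding to methylated CpG. MBD1 averaged 74.4 ± 8.47 CPM in siNFKB2 and 47.7 ± 0.609 CPM in siNS and rose (log2 0.64, edgeR adjusted p = 0.00302). MBD4 (log2 -0.28) and ZBTB33 (0.41) did not pass (adjusted p = 0.107 and 0.199).

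In the list of TET partners and repair of oxidised cytosine, 5 of 15 tested genes fell and 2 rose (median -0.13), against 13.5% and 12.6% of all genes. IDH2, the mitochondrial isocitrate dehydrogenase that makes the TET cosubstrate 2-oxoglutarate, averaged 3.94 ± 1.48 CPM in siNFKB2 and 16.2 ± 2.61 CPM in siNS and fell (log2 -2.03, edgeR adjusted p = 0.000482). GADD45A, a stress gene linked to demethylation, averaged 322 ± 103 CPM in siNFKB2 and 142 ± 23.5 CPM in siNS and rose (log2 1.18, adjusted p = 0.00440). APEX1, the abasic site endonuclease, fell (-0.57, 0.00443), and so did the repair polymerase POLB (-0.42, 0.0345). The other calls, named after their values were seen, were TDG, the glycosylase that removes the cytosine forms made by TET enzymes, which rose (0.42, 0.0464), and the repair glycosylase NTHL1 (-0.75, 0.0354) and CXXC5 (-0.74, 0.0482), which fell. TDG averaged 33.1 ± 3.48 CPM in siNFKB2, 18.2 ± 0.878 CPM in siRELB and 24.7 ± 3.17 CPM in siNS, and was higher in siNFKB2 than in siRELB by a log2 fold change of 0.86 (edgeR adjusted p = 0.00179). In methyl donor supply, 4 of 17 tested genes fell and 3 rose (median -0.23), against the same background of 13.5% and 12.6%. Those that fell included the folate enzymes MTHFD1 (log2 -0.64, edgeR adjusted p = 0.00444), TYMS (-0.84, 0.00764) and MTHFD1L (-0.44, 0.0131). TYMS makes thymidylate for replication and is also on the G1/S list. Those that rose, likewise named after their values were seen, included the methionine synthase MTR (0.52, 0.0244) and the adenosine kinase ADK (0.32, 0.0331). In siRELB against siNS, edgeR and DESeq2 called none of the de novo, reader, TET partner and methyl donor lists, with 0, 1, 3 and 4 genes at an unadjusted p below 0.05. Over all 14815 genes, edgeR called 2.02% in that comparison, DESeq2 called 876, and 2492 had an unadjusted p below 0.05.

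Germline, imprinted and tumour-related genes whose promoters are known targets of DNA methylation in other cells were read next. Of 26 germline genes, the 11 tested are those already expressed in these cells, with siNS means of 0.988 CPM (STK31) to 321 CPM (MAGEA4). In siNFKB2 3 of the 11 rose and 2 fell, with a median of -0.013, against 12.6% and 13.5% of all genes. Those that rose were MAGEA4, at 523 ± 54.4 CPM in siNFKB2 and 321 ± 41.3 CPM in siNS (log2 0.71, edgeR adjusted p = 0.00252), HORMAD1, at 8.998 ± 0.343 CPM in siNFKB2 and 5.56 ± 0.811 CPM in siNS (0.69, 0.0119), and MAGEA3 (0.47, 0.0288). MAGEB2, a member of the same cancer-testis family, fell (log2 -0.82, adjusted p = 0.0188), as did MAGEA1 (-0.33, 0.0396), named after its value was seen. MAGE genes have near-identical copies, so their counts are uncertain. The 15 germline genes not tested stayed at or under 0.713 CPM in every library and were not read as silent. MAGEA4, HORMAD1, MAGEA3 and MAGEB2 were not called in siRELB against siNS, where none of the 11 was, with 3 at an unadjusted p below 0.05 and 0 by DESeq2. Over all 14815 genes, edgeR called 2.02% there, 2492 had an unadjusted p below 0.05 and DESeq2 called 876.

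Of 20 imprinted genes 10 were tested, and none was called in siNFKB2 against siNS by edgeR, with 2 at an unadjusted p below 0.05 and 1 called by DESeq2. Over all 14815 genes, edgeR called 26.1%, 5697 had an unadjusted p below 0.05 and DESeq2 called 4450. SNRPN, IGF2, KCNQ1OT1 and L3MBTL1 averaged at most 2.45 CPM in each group, with an SE of 0.299 to 0.354, so changes could be missed. The smallest adjusted p were those of SGCE (log2 0.28, 0.0744), SNRPN (0.70, 0.113), GRB10 (-0.19, 0.214) and PEG10 (0.37, 0.279). In siRELB against siNS none of the 10 was called by edgeR or DESeq2, with 0 at an unadjusted p below 0.05, where 2492 of all 14815 genes had such a p. Of 17 tested genes with promoters that are methylated in various tumours, 3 fell and 1 rose (median -0.16), a share near the 26.1% of all genes called either way. TIMP3, an inhibitor of metalloproteinases, was at 13.6 ± 3.54 CPM in siNFKB2 and 43.7 ± 3.00 CPM in siNS and fell (log2 -1.68, edgeR adjusted p = 0.000267), as did the matrix protein THBS1 (-0.79, 0.00113). CDH1, which encodes E-cadherin, rose at a low level, with 2.60 ± 0.502 CPM in siNFKB2, 3.34 ± 0.175 CPM in siRELB and 1.47 ± 0.244 CPM in siNS. Its log2 fold change was 0.82 in siNFKB2 (adjusted p = 0.0301) and 1.18 in siRELB (adjusted p = 0.0352), comparisons that share the siNS libraries. THBS1 was the other gene of this list called in siRELB (log2 -0.62, adjusted p = 0.0273). In that comparison 1 of the 17 was thus called lower and 1 higher, against 0.81% and 1.21% of all genes. CDKN2A, which encodes the inhibitor p16, had 0 counts in all 9 libraries, which allows up to 3 counts, or 0.154 to 0.199 CPM, per library, counting error alone.

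A count of 0 in these tables needs care. Of 179 distinct genes on the lists, 21 were at 0 in all 9 libraries, and 9 of these, EHMT2 and ZBTB4 among them, have further placements in the tables under a suffixed name. TUBB and ABCF1, genes that most cells use, were at 0 as well and have 7 and 6 further placements. Such genes are listed at 0 and were not read as silent. CDKN2A, DNMT3L and the 9 methylation genes have no further placement.

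**Figure D5:**
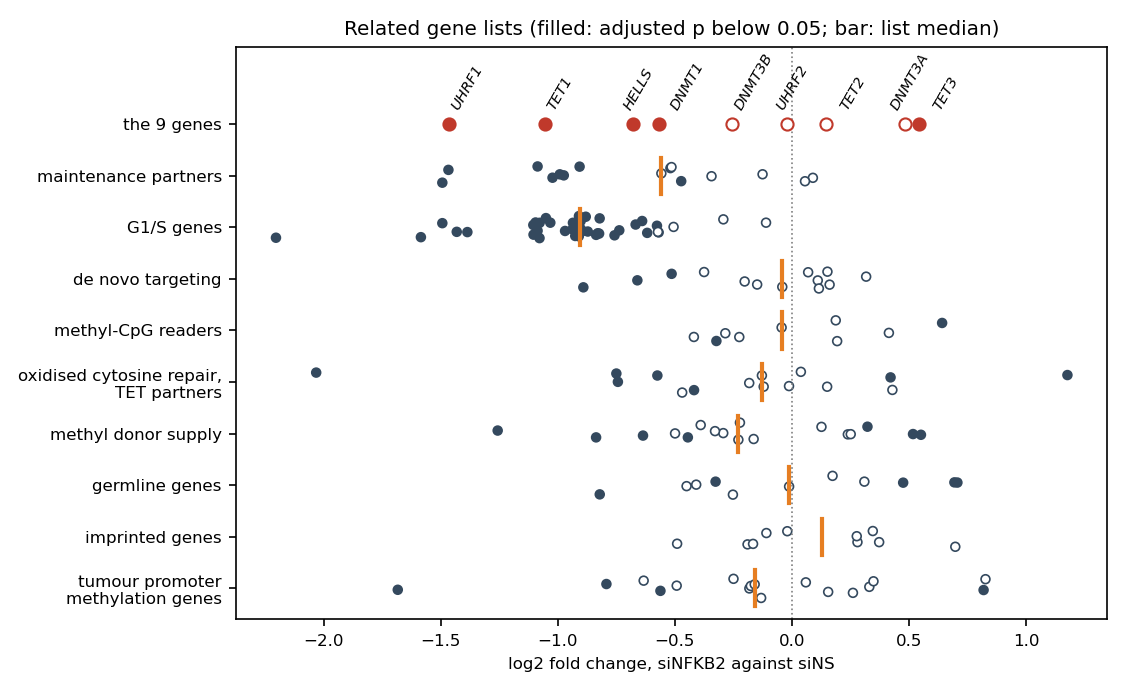
Log2 fold change in siNFKB2 against siNS (horizontal axis) of the 9 genes and of every tested gene on each related list; filled points have an adjusted p below 0.05 and orange bars are list medians. The medians of the G1/S list (-0.91) and of maintenance partners (-0.56) lie lowest, and those of the other lists lie between -0.23 and 0.13.

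Genes with the most similar profile were found by Pearson correlation of log2(CPM + 1) over the 9 libraries, among 10607 genes averaging at least 5 CPM. The 9 points share the groups and libraries, so the values describe likeness only. For UHRF1 they were TRIOBP (r = 0.993), ABCA2 (0.993), CDCA5 (0.990), SORBS3 (0.987) and RPS6KA4 (0.986). For DNMT1 they were ADAMTS15 (0.997), CDCA5 (0.995), HAUS4 (0.991), POC1A (0.989) and IMPA2 (0.987). CDCA5, which encodes the cohesion protein sororin, was close to both. For UHRF2, whose groups overlapped, the highest values were lower, for TRIO (0.891), TRIM45 (0.889), PTPDC1 (0.862), PTPRB (0.840) and ZNF337 (0.833). Among the 9 genes, UHRF1 and DNMT1 correlated at 0.98, DNMT1 and HELLS at 0.89, and TET3 ran opposite to DNMT1 (-0.94) and UHRF1 (-0.94).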

How the data were processed

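The authors deposited raw read counts per gene symbol, 1 table per library, with no normalization, per the file headers. The submitters' processing notes list Trimmomatic 0.38, STAR 2.7.1a, Subread 1.6.4 and GRCh38.p13, and no source used here states their settings, the annotation or the use of strand. Groups and replicate numbers come from the labels. Within a group, library pairs differed beyond sampling noise (chi-square per degree of freedom 3.13 to 75.8), so all 9 were kept as samples.

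Counts were filtered with filterByExpr, scaled by TMM and fitted with 3 group means over all 9 libraries in edgeR 4.0.16 (R 4.3.3). Contrasts were tested by quasi-likelihood F, with p adjusted after Benjamini and Hochberg over 14815 genes. The SE was obtained from F and the log2 fold change, and 95% intervals use the fit's residual and prior degrees of freedom. DESeq2 1.42.0 was an alternative. In a simulation of siNFKB2 against siNS (14616 genes), 71.0% of changes of log2 size 1 and 100% of size 2 were recovered. It gave every gene the same biological spread and the libraries no shared deviation, and it planted no smaller change. These rates therefore need not hold for the libraries studied. The correlations of same-numbered libraries did not meet the rule for pairing (over 0.1 for every pair), so the replicate block was an alternative. Other alternatives were another scaling, no filter, summed suffixed entries (at most 0.0369% of counts), and libraries left out.

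The 9 genes, the lists and the motifs were chosen with earlier results of these data known. All 9 are named, as are up to 4 genes of each list by adjusted p in siNFKB2 against siNS and the 5 genes most like UHRF1, DNMT1 and UHRF2. List genes are described by counts and medians without a test of the list, and a few of them are not reported here by name. HELLS shares 4.32% of its exon length with a further GENCODE gene. Promoter sequences are from RefSeq, where all 9 symbols matched.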

Additional observations from a re-analysis of the deposited data

How the results depend on the processing

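UHRF1, DNMT1, HELLS and TET3 kept their calls in siNFKB2 against siNS under all 16 alternatives, with log2 fold changes of -1.58 to -1.30, -0.61 to -0.54, -0.79 to -0.60 and 0.49 to 0.69. Of the 9 genes, those called higher in siNFKB2 against siNS, siRELB against siNS and siNFKB2 against siRELB numbered 2, 1 and 2 both with a replicate block and without the 3 libraries numbered 1, and those called lower in siNFKB2 against siRELB numbered 5 under each. All genes called in these comparisons numbered 5944, 1570 and 6054 with the replicate block and 6711, 3390 and 6600 without the libraries numbered 1. In siRELB against siNS, 129 were called with only the 6 libraries compared and 876 by DESeq2. With 1 library left out, all genes called ranged from 2220 to 4895, from 15 to 1819 and from 2188 to 4917, and those of the 9 genes called higher from 1 to 2 in both siNFKB2 comparisons. Those called lower ranged from 3 to 4 in siNFKB2 against siNS and from 2 to 5 in siNFKB2 against siRELB. The cause of these moves was not tested.

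Some fold changes changed sign, none of them called in the main fit, and TET1 in siRELB against siNS did so from -0.27. Without the libraries numbered 1, UHRF2 was at 0.075, 0.067 and 0.0080 in the same 3 comparisons, and TET1 at 0.15 and TET3 at 0.045 in siRELB against siNS. With the replicate block DNMT3A was at 0.010 there. With 1 library left out, UHRF2 ranged from -0.16 to 0.095, -0.077 to 0.040 and -0.15 to 0.11, and TET2 from -0.024 to 0.43, -0.063 to 0.41 and -0.079 to 0.16. In siRELB against siNS, DNMT3A ranged from -0.15 to 0.16, TET1 from -0.52 to 0.17 and TET3 from -0.056 to 0.065.

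Same-numbered libraries deviated together at 0.044 to 0.59, with only number 1 above 0.1 in every pair of groups, and not every library correlated best with its own number, so the numbers were not taken as pairs and the block is only an alternative. With it DNMT3A passed in siNFKB2 against siNS (adjusted p = 0.0242) and siNFKB2 against siRELB (0.0257), DNMT3B in siRELB against siNS (0.0319), and HELLS (0.00785) and TET1 (0.0254) in siNFKB2 against siRELB. TET1 had the fewest counts of the 9 genes, 23 to 133, and in siNS its 3 libraries differed widely.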
